A study of Homo sapiens with 3 samples.

Results

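The genes described here are 51 genes of nucleic acid sensing and of the interferon response, chosen by symbol for their known roles. Of these, 50 were found among the 19862 genes of the expression table, and the antisense RNA PSMB8-AS1 was not analysed here. RNA sequencing of messenger RNA was done on 3 libraries of Hep3B, a human hepatocellular carcinoma line that lacks p53 and carries integrated hepatitis B virus DNA. The control library is titled NT-Empty and its treatment label names only the transfection reagent, Fugene. The HKR3 library came from cells given a pcDNA3.1 plasmid that encodes HKR3, an older name of the zinc finger protein ZBTB48. The third library came from cells given a small interfering RNA against TERT, the catalytic subunit of telomerase. All cells were grown in serum-containing medium, and the labels' treatment text, which is the same for the 3 libraries, names Fugene HD, small interfering RNAs and the pcDNA3.1 vector. What nucleic acid the control cells were given, if any, and the time from transfection to harvest are not stated in the labels. Each group held 1 library, so there is no replicate spread to judge a difference by, and no test was possible. All values are single measurements in FPKM, fragments per kilobase of transcript scaled to the size of the library. Where 3 values are given together, their order is control, HKR3, and the library labelled siTERT.

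Cells detect foreign nucleic acid with sensors in the cytosol and in endosomes. The DNA sensor cGAS makes a cyclic dinucleotide that activates STING, and the RNA sensors RIG-I and MDA5 act through the mitochondrial adaptor MAVS. Both routes reach the kinase TBK1 and the transcription factor IRF3, which switch on the genes of interferon beta and interferon lambda. Secreted interferon then acts through JAK kinases on a complex that contains STAT2 and IRF9 and binds the interferon-stimulated response element in the promoters of many antiviral genes. Plasmid DNA introduced by transfection is a known trigger of the cGAS route, and hepatoma lines are known for weak DNA sensing. The question asked of these libraries was whether the plasmid transfection left the marks of such a response.

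The targeted genes were checked first. ZBTB48 was at 4.91, 2842 and 4.89 FPKM. TERT was at 4.69, 4.25 and 5.37 FPKM in the same order, so the library labelled siTERT did not have less TERT than the control, and directions given for that library rest on its label alone. The number of fragments in a library, judged from the smallest FPKM steps of weakly expressed genes, lay between 1.02e+07 and 1.13e+07. Of 8 hepatocyte and hepatoma markers, all were measured in every library, the lowest being TTR and APOB in the range from 102 to 164 FPKM. In the HKR3 library 7 of these 8 were below the control, FGB being the exception, and the median difference in log2(FPKM + 1) was -0.52. Over all 10974 genes that passed the filter, 5639 were below the control and the median was -0.02. At least 1.5-fold, 1 of the 8 was higher and 3 were lower, beside 15.3% and 12.7% of all genes. Genes above 100 FPKM, the level of these markers, were not compared as a class, so the part of level in this shift was not tested. Their summed level was 11485, 8152 and 11370 FPKM. Of 12 leukocyte markers, 6 were listed at 0 in all libraries, among them PTPRC, CD3E and CD4, and 3 passed the filter, namely LYZ, CD14 and CD68. The summed level of the leukocyte list was 432, 243 and 441 FPKM, most of it LYZ. Of 5 markers of plasmacytoid dendritic cells, the professional interferon producers, CLEC4C, LILRA4, IL3RA and GZMB were listed at 0, and the sum was 3.97, 3.09 and 3.61 FPKM. Of 7 stromal and endothelial markers with a value, 0 passed the filter.

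The interferon genes themselves were not detected in any library. IFNB1, encoding interferon beta, and IFNL1, encoding interferon lambda 1, were listed at 0 in each of the 3 libraries. The other interferon genes, 19 of them with a value, were also listed at 0 in all libraries. A listed 0 is not read as absence, because the 13 protein genes of the mitochondrial genome, which every such cell expresses, were listed at 0 too. The receptors for these ligands were present. IFNAR1 and IFNAR2, the subunits of the receptor for type I interferon, were at 5.56 and 15.8 FPKM in the control, and IFNLR1, the specific subunit for interferon lambda, was at 0.997 FPKM.

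Of the 50 genes with a value, 24 had a mean of at least 1 FPKM over the 3 libraries and are called measured below. This is 48.0% of them, beside 55.3% of all genes. A further 17 had lower values, and 9 were listed at 0 in every library. Of the 50, the number at 1 FPKM or more was 21, 24 and 22. The summed FPKM of the 50 genes was 384, 354 and 386. Over all genes the summed FPKM was 596536, 535516 and 579410, and the number of genes at 1 FPKM or more was 10868, 10968 and 10878. With every library scaled to the same sum, as TPM are, the 50 genes summed to 644, 662 and 666 TPM, so their lower sum in the HKR3 library did not hold after that scaling.

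**Figure D1:**
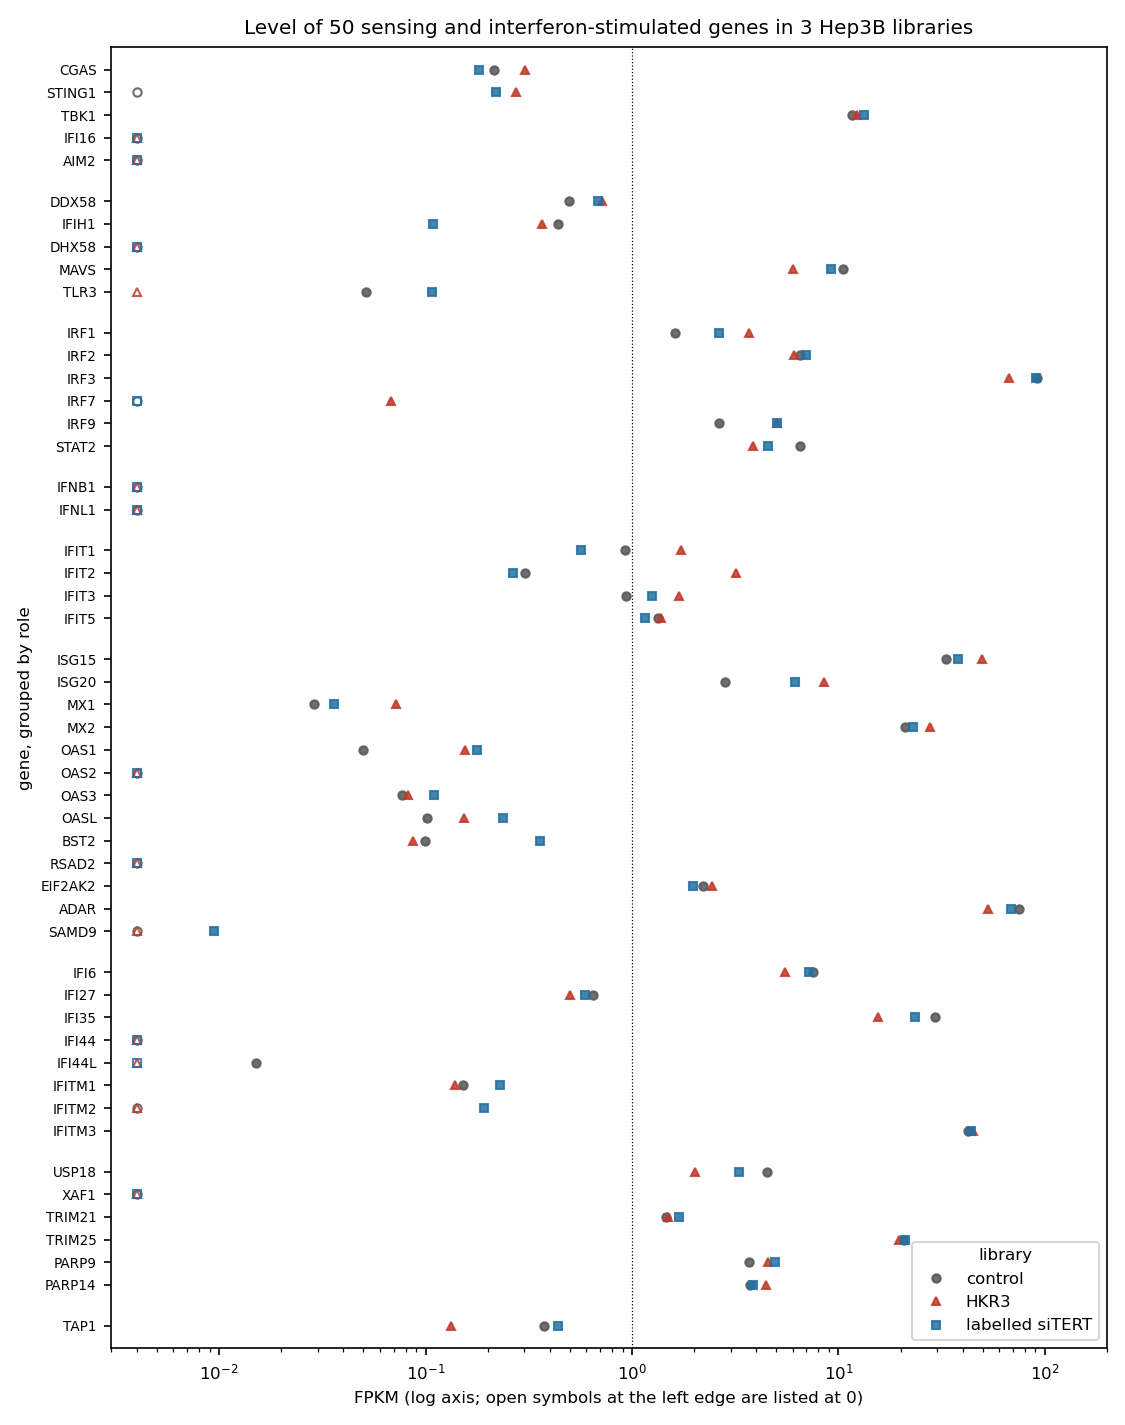
Level of each of the 50 genes with a value, in FPKM on a log axis, by library (circle: control; triangle: HKR3; square: labelled siTERT), grouped by role, with the dotted line at 1 FPKM and symbols drawn over each other where values coincide. Open symbols at the left edge are listed at 0: IFI16, AIM2, DHX58, IFNB1, IFNL1, OAS2, RSAD2, IFI44 and XAF1 lie there in all 3 libraries, while IRF3, ADAR, IFITM3 and ISG15 lie farthest to the right in the control.

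Differences below are in log2(FPKM + 1), a scale that understates those of weakly expressed genes, and at least 2-fold means a difference of at least 1 on it. Few of these genes differed much between the HKR3 library and the control. IFIT2 and ISG20, both antiviral effectors, stood at least 2-fold higher, with differences of 1.69 and 1.31. The adaptor MAVS, the STAT2 subunit of the interferon-activated complex, IFI35 and the ISG15 protease USP18 were lowest, with differences from -0.87 to -0.63. By count, 2 of the 24 measured genes, or 8.33%, differed at least 2-fold, both higher. Over all 10974 genes that passed the filter the share was 8.05%, with 606 higher and 277 lower, so the share among these genes was near the background. The background was 5.52% for higher genes alone and 2.52% for lower ones. Scaling every library to the same sum gave 991 higher and 208 lower genes and moved the median of all genes from -0.02 to 0.12. At least 1.5-fold, 8 of the 24 differed, 4 higher (IFIT2, ISG20, the transcription factors IRF1 and IRF9) and 4 lower (IFI35, USP18, MAVS and STAT2), against a background of 28%, with 15.3% higher and 12.7% lower. The median difference of the 24 was 0.08, beside -0.02 for all genes, and 0.23 beside 0.12 after scaling to the same sum. At a mean of at least 5 FPKM the median turned to -0.08. IFIT2 and IFIT1 reached a mean of 1 FPKM through their HKR3 values, so their place among the measured genes is tied to that difference.

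The same was described by level. Among the 12 measured genes with a mean from 1 to 5 FPKM, 10 were higher in the HKR3 library than in the control, their median being 0.22, beside 54.8% of 2656 genes of that level and a median of 0.07. STAT2 and USP18 were the exceptions. IFIT1 and IFIT2, among the 10, passed the filter through their HKR3 values, so this count is tied to that difference. TRIM21 and IFIT5, also among the 10, differed by 0.02 and 0.03. Among the 5 genes from 5 to 20 FPKM, 2 were above, ISG20 and TBK1, with a median of -0.08 beside 0.06 for all genes of that level, of which 54.9% were above. Among the 7 genes from 20 to 100 FPKM, 3 were above, namely ISG15, MX2 and IFITM3, with a median of -0.08. For all genes of that level the median was -0.10, and 42.0% were above. Fragments of each gene were estimated from its FPKM and the length of its principal transcript, and an exact binomial interval at 95% was set on each ratio of FPKM to the control. Such intervals cover counting error only and not the variation between cultures. They lay above 1 for 9 of the 24 genes and below 1 for 6, and 9 included 1, where the background over all genes was 34.7% above and 37% below. On the shortest coding transcript, which gives fewer fragments, 7 lay above and 6 below, against 24.5% and 27% of all genes. An interval that leaves out 1 is therefore common in this pair of libraries.

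Against the control, the library labelled siTERT had 0 of the 24 genes past 2-fold. The share of all genes past it was 0.483%, with 0.282% higher and 0.2% lower. At 1.5-fold, ISG20 and IRF9 were higher and 0 were lower, against a background of 2.93%, with 1.69% higher and 1.24% lower. The median difference was 0.03, beside -0.01 for all genes. These differences and those of the HKR3 library share 1 control library, so a control value that is low raises both. The control value was the lowest of the 3 for 11 of the 24 genes, among them IRF1, IRF9 and ISG20. It was the highest for 7. Over all genes that passed the filter these shares were 31.1% and 35.1%.

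The comparison of the HKR3 library with the library labelled siTERT does not use that control. IFIT2 was the 1 gene of 24 past 2-fold, with a difference of 1.73, against a background of 5.49%, of which 4.11% higher and 1.38% lower. At least 1.5-fold, IFIT1 followed with 0.80 and 0 were lower, against a background of 22.6%, of which 12.9% higher and 9.71% lower. Both IFIT2 and IFIT1 passed the filter through their HKR3 values, so their place in this comparison is tied to that difference too. ISG20 differed by 0.41, IRF1 by 0.37 and IRF9 by 0.00 in this comparison. The median was -0.05, which turned to 0.06 after scaling to the same sum. Of the 3 libraries, the HKR3 library was the highest for 12 of the 24 genes and the lowest for 9, while the library labelled siTERT was in the middle for 15. Over all genes the HKR3 library was the highest for 42.8% and the lowest for 44.8%, and the library labelled siTERT was in the middle for 53.9%.

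**Figure D2:**
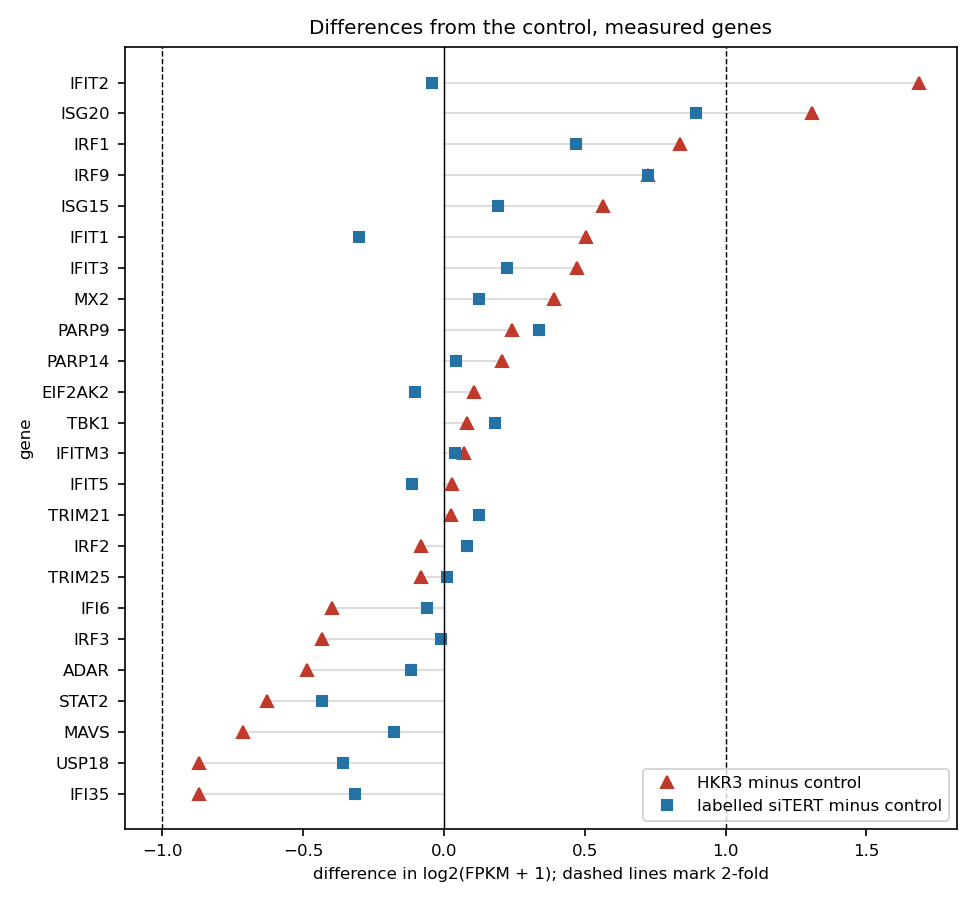
Difference from the control in log2(FPKM + 1) of the 24 measured genes, ordered by the HKR3 library (triangles), with the library labelled siTERT as squares and dashed lines at 2-fold. IFIT2 and ISG20 lie past the right dashed line in the HKR3 library, at 1.69 and 1.31, while IFI35 and USP18 lie lowest at -0.87, and 0 squares lie past 2-fold.

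In the DNA-sensing and RNA-sensing groups of the chosen genes, the sensors and STING1 were low in all 3 libraries. The kinase TBK1, the adaptor MAVS and the factor IRF3 were not. This layout does not hold for sensing genes as a whole, since 29 of 39 other sensing and adaptor genes, described further below, were measured. CGAS, the cytosolic DNA sensor, was at 0.214, 0.303 and 0.182 FPKM. STING1, which encodes STING, was listed at 0 in the control and stood at 0.274 and 0.220 FPKM in the treated libraries. IFI16 and AIM2, DNA sensors of another family, were listed at 0 throughout. Of the DNA-sensing group of the chosen genes only TBK1, the kinase that phosphorylates IRF3, was measured, at 11.6, 12.4 and 13.3 FPKM. The 3 libraries were close to each other for TBK1, and its differences from the control were 0.08 and 0.18.

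The RNA-sensing group had the same layout. DDX58, encoding RIG-I, was at 0.494, 0.718 and 0.682 FPKM. IFIH1, encoding MDA5, was at 0.438, 0.368 and 0.108 FPKM, lowest in the library labelled siTERT. TLR3, the endosomal receptor for double-stranded RNA, was at 0.0514 FPKM in the control, listed at 0 in the HKR3 library and at 0.107 FPKM in the other. None of these reached a mean of 1 FPKM, and DHX58, a regulator of both RNA sensors, was listed at 0 in all. The adaptor MAVS was measured, at 10.5, 6.01 and 9.17 FPKM. MAVS was thus lowest in the HKR3 library, with a difference of -0.71 from the control, and -0.18 in the library labelled siTERT. Its FPKM in the HKR3 library was 1.75-fold lower than in the control, and its counting interval, which reaches 1.91, does not include 1.

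The transcription factors of the pathway differed from the control in both directions. IRF3, the factor activated by TBK1, was at 91.1, 67.3 and 90.5 FPKM. It was the highest of the 24 measured genes in every library, and the HKR3 library alone was low, with a difference of -0.43. IRF1, a factor made in response to interferon and NF-kB, was at 1.62, 3.69 and 2.63 FPKM. Its control value was the lowest of the 3 and its difference was 0.84 in the HKR3 library and 0.47 in the other treated library. IRF2, which competes with IRF1 for the same sites, was at 6.52, 6.10 and 6.95 FPKM, with differences of -0.08 and 0.08. The first of these became 0.06 when every library was scaled to the same sum.

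IRF9 and STAT2, partners in the complex that carries the interferon signal to DNA, differed in opposite directions. IRF9 was at 2.65 FPKM in the control and at 5.03 FPKM in both treated libraries, a difference of 0.72 in each. Its value is uncertain, since 48.4% of its annotated exon bases lie in the exons of a read-through gene, AL136295.5, on the same strand. STAT2 was at 6.49, 3.85 and 4.55 FPKM. The control was the highest of the 3, and the differences were -0.63 and -0.43. Exons of other genes on the opposite strand cover 22.0% of the IRF1 exon bases, 19.3% of those of IRF3, 14.7% of those of TBK1 and 21.3% of those of IFITM3, and whether strand was used in counting is not stated. IRF7, the factor that amplifies interferon production, was listed at 0 in the control and in the library labelled siTERT, and was at 0.0682 FPKM in the HKR3 library.

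The promoters of the interferon-stimulated genes are shown next, because the response element is the sequence through which such genes share control. The element's core was searched as GAAA, any 2 bases and GAAA again, on both strands, in RefSeq promoters of build GRCh38.p14 that run from 250 bases before to 50 bases after the annotated start. Of the 50 genes, 38 had a promoter in the table, and 25 of these, or 65.8%, held the core in at least 1 of their promoters. Among all genes with a promoter the share was 4.38%, and among all 35116 promoters 3.57%. The AP-1 site TGANTCA was in 5 of the 38, or 13.2%, beside 9.37% of all genes. The NF-kB site, by its usual consensus on both strands, was in 7, or 18.4%, beside 9.16% of all genes. The genes were chosen for known roles in the interferon response, so their share with the core is not independent of that choice. A match describes these letters and is no evidence of binding in Hep3B.

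The promoters of ISG20, IFIT1 and ISG15 are printed 5′ to 3′ in the direction of transcription, with matches to the core in capitals, as well as the AP-1 site of ISG20, TGAGTCA. ISG20 held 1 core and 1 AP-1 site, and IFIT1 and ISG15 held 2 cores each, those of ISG15 overlapping in 1 run of capitals.
ISG20, chr15:88638766-88639065, plus strand: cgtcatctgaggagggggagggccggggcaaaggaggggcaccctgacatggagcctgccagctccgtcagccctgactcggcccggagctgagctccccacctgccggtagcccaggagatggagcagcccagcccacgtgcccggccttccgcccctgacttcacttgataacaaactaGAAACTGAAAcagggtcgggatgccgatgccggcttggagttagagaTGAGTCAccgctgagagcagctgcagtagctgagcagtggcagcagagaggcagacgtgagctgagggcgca
IFIT1, chr10:89392373-89392672, plus strand: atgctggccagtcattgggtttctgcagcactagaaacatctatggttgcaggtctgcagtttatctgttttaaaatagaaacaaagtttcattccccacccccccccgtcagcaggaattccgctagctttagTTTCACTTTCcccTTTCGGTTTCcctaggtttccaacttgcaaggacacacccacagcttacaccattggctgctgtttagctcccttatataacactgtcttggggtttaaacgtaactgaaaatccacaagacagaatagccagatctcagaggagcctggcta
ISG15, chr1:1013247-1013546, plus strand: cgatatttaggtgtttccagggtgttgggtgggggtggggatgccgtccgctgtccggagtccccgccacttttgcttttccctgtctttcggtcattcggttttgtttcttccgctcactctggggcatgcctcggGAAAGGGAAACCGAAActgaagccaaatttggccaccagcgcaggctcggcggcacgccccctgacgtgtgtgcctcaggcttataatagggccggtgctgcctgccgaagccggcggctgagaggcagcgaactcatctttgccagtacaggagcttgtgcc

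The following windows of 30 bases show the core, in capitals, with 10 bases on each side in other measured genes. A single core is shown for each gene. IFIT5 and IFI6 held 3 cores each, IFITM3 held 2, and IFIT3 held 4 over its promoters. The core shown begins 4 bases before the annotated start in IFIT5, 6 bases before it in EIF2AK2 and 156 bases before it in IFI6.
IFIT3, chr10:89327865-89327894, plus strand: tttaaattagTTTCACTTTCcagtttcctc
IFIT5, chr10:89414554-89414583, plus strand: atttcttaagTTTCAGTTTCtgagcgctcg
IFI6, chr1:27672329-27672358, minus strand: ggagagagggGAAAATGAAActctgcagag
IFITM3, chr11:320876-320905, minus strand: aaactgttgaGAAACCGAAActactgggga
EIF2AK2, chr2:37156967-37156996, minus strand: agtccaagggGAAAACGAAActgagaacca
PARP9, chr3:122564322-122564351, minus strand: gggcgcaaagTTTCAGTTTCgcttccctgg
PARP14, chr3:122680800-122680829, plus strand: tccaggaaacGAAAGCGAAAgagtcaaagt

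The IFIT genes encode proteins that bind viral RNA and block its translation, and they are among the genes that respond most strongly to interferon. IFIT2 was at 0.302, 3.19 and 0.264 FPKM. The HKR3 library alone was high. The difference from the control was 1.69, the largest of the 24 measured genes, and the ratio of FPKM was 10.6. On the length of its principal transcript this is about 126 fragments against 11, and the counting interval of the ratio ran from 5.61 to 21.3. Of its annotated exon bases 8.68% are shared with the gene AL353751.1 on the same strand.

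The other IFIT genes stood much closer to the control. IFIT1 was at 0.926, 1.73 and 0.563 FPKM. IFIT3 was at 0.934, 1.69 and 1.26 FPKM. Both were highest in the HKR3 library, with differences of 0.50 and 0.47, and their ratios to the control had counting intervals from 1.03 to 3.48 and from 1.10 to 3.20. IFIT5 was at 1.33, 1.38 and 1.15 FPKM, a difference of 0.03, and the counting interval of its ratio includes 1. In the HKR3 library all 4 IFIT genes stood above the control, beside 48.6% of all genes that passed the filter. Their median difference was 0.49, and 1 of the 4 was past 2-fold, beside 5.52% of all genes higher. IFIT2 and IFIT1 passed the filter through their HKR3 values, so these counts are tied to that difference. In the library labelled siTERT 1 of 4 was above the control, beside 47.4% of all genes, and the median was -0.08.

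ISG20, an exonuclease that degrades viral RNA, was the other gene past 2-fold in the HKR3 library. It was at 2.84, 8.48 and 6.14 FPKM. Both treated libraries were above the control, with differences of 1.31 and 0.90. The ratios of FPKM were 2.99, with a counting interval from 1.88 to 5.07, and 2.16, with an interval from 1.31 to 3.71. Besides ISG20, the measured genes with an AP-1 site were IFIT5, which also holds the core and differed by 0.03, and ADAR, which differed by -0.49.

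ISG15, a ubiquitin-like protein that is joined to other proteins in the antiviral state, was at 33.1, 49.4 and 37.9 FPKM. The HKR3 value was the highest, with a difference of 0.56 and a ratio of 1.49, whose counting interval does not include 1 and reaches 1.77. Of the enzymes that handle ISG15, USP18 and UBE2L6 were lower in the same library. USP18, which removes ISG15 and also dampens signalling at the interferon receptor, was at 4.52, 2.02 and 3.31 FPKM, with differences of -0.87 and -0.36 and a 2.23-fold lower FPKM in the HKR3 library. UBE2L6, the enzyme that conjugates ISG15 and not one of the 51 genes, was at 11.0, 3.25 and 8.03 FPKM, with differences of -1.50 and -0.41. USP18 shares 28.8% of its sequence, in units of 31 bases, with its copy USP41, so reads may have been split between them.

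The MX proteins are GTPases that trap viral particles, and the pair differed widely in level. MX1 was at 0.0287, 0.0715 and 0.0361 FPKM. MX2 was at 21.0, 27.8 and 23.0 FPKM in the same order. MX2 was therefore far above MX1 in every library, and 0.288% of its sequence units occur in MX1. The difference of MX2 was 0.39 in the HKR3 library, with a ratio of 1.32 and a counting interval from 1.20 to 1.47.

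The oligoadenylate synthetases, which activate RNA decay when they meet double-stranded RNA, were near the limit of detection. OAS1 was at 0.0496, 0.155 and 0.178 FPKM. OAS3 lay between 0.0765 and 0.110 FPKM, OASL between 0.102 and 0.238 FPKM, and OAS2 was listed at 0. RSAD2, which encodes viperin, and IFI44 and XAF1 were listed at 0 in all libraries, and SAMD9, IFI44L, IFITM2 and IFITM1 did not exceed 0.230 FPKM in any. BST2, or tetherin, was at 0.0992, 0.0871 and 0.359 FPKM, and IFI27 at 0.650, 0.503 and 0.590 FPKM. Several of the genes most used as readouts of interferon were therefore listed at or near 0 in the plasmid-treated cells as in the control. This does not hold for all such genes, since ISG15, MX2, IFIT1, IFIT2 and IFIT3, described above, were highest in the HKR3 library. IFIT1 and IFIT2 passed the filter through those values, and a listed 0 is not read as absence.

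EIF2AK2, or PKR, a kinase that stops translation on double-stranded RNA, was at 2.196, 2.44 and 1.98 FPKM, a difference of 0.11 in the HKR3 library. ADAR, an enzyme that edits double-stranded RNA and so hides the cell's own RNA from MDA5, was at 74.5, 52.9 and 68.7 FPKM. It was lowest in the HKR3 library, with a difference of -0.49. IFITM3, which blocks the entry of viruses from endosomes, was at 42.7, 44.8 and 43.9 FPKM and differed by 0.07 in the HKR3 library. As 23.9% of its sequence units occur in IFITM2, reads of this pair cannot be fully separated. IFI6, a membrane protein of the endoplasmic reticulum, was at 7.56, 5.49 and 7.22 FPKM, with a difference of -0.40 in the HKR3 library. The counting interval of that ratio, from 0.49 to 1.06, includes 1. IFI35 was at 29.4, 15.6 and 23.4 FPKM, and with -0.87 it had the lowest difference of the 24, close to that of USP18. The genes that were lower here, MAVS, IRF3, STAT2, ADAR, IFI35, IFI6 and USP18, stood beside hepatocyte markers of which 7 of 8 were also lower. Of all genes that passed the filter, 5639 of 10974 were lower in the HKR3 library. The part of the shift of the hepatocyte markers in these values was not tested. In RNA from whole cultures, fewer expressing cells and less RNA per cell cannot be told apart.

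TRIM25, a ubiquitin ligase that acts with RIG-I, was at 20.8, 19.6 and 21.0 FPKM, and TRIM21, a receptor for antibody-coated virus, was at 1.46, 1.502 and 1.69 FPKM. Neither differed by more than 0.13 in either treated library, and the sign of TRIM25 in the HKR3 library turned to 0.07 after scaling to the same sum. PARP9, which works with the ligase DTX3L, was at 3.68, 4.53 and 4.92 FPKM, and PARP14 at 3.72, 4.45 and 3.86 FPKM. PARP9 was above the control in both treated libraries, by 0.24 and 0.34. TAP1, a subunit of the peptide transporter of antigen presentation, was under the filter at 0.376, 0.132 and 0.438 FPKM.

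The measured genes were also described by whether a promoter holds the response element core, which could be done for 19 of the 24. IFIT2, MX2, USP18, IRF2 and IRF3 had no promoter entry and are left out. Their differences in the HKR3 library were 1.69, 0.39, -0.87, -0.08 and -0.43. Of 11 with a core, 10 were above the control, with a median of 0.21, and IFI6 was the exception. Of these 10, TRIM21, IFIT5, IFITM3, EIF2AK2 and PARP9 differed by 0.02 to 0.24 with counting intervals that include 1. The interval of IFI6 includes 1 too. IFIT1 passed the filter through its HKR3 value. Of 8 with a promoter but no core, 3 were above the control, namely IRF1, IRF9 and TBK1, with a median of -0.28. After scaling to the same sum these counts were 10 of 11 and 4 of 8. Over all genes that passed the filter, 182 of the 330 with a core were above the control, with a median of 0.06, and 4178 of the 8650 without one, with a median of -0.02. At least 2-fold higher were 6.36% and 5.48% of them. In the library labelled siTERT, 7 of the 11 and 4 of the 8 were above the control. Over all genes these counts were 176 of 330 and 4042 of 8650. The split by motif was made after values of these genes had been seen, and the difference between both sets was not tested.

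**Figure D3:**
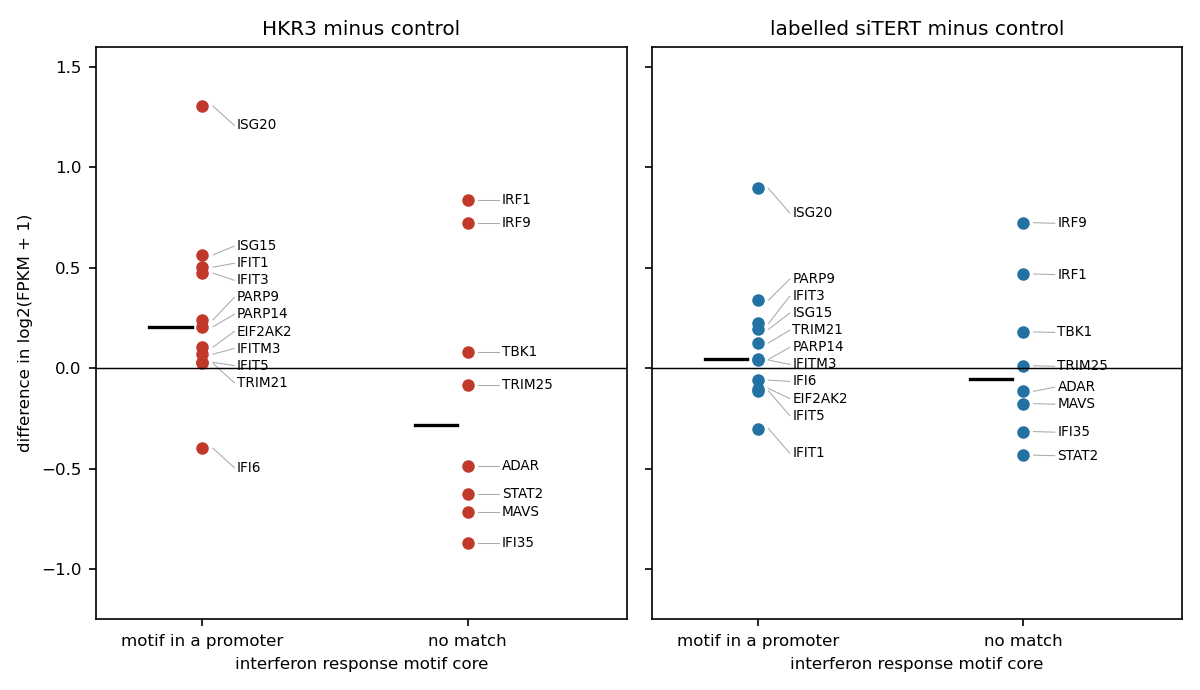
Difference from the control in log2(FPKM + 1) of the 19 measured genes with a promoter in the table, split by whether a promoter holds the response element core, for the HKR3 library (left) and the library labelled siTERT (right). Each point is a gene and each bar the median: 10 of 11 points with the core lie above 0 in the HKR3 library, with IFI6 below, against 3 of 8 without it. Over all genes that passed the filter, 182 of 330 with the core and 4178 of 8650 without it were above the control. The split was made after values had been seen and was not tested.

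Other genes of the pathway were taken from lists of their known members, and their counts in the HKR3 library stand beside a background of 5.52% of all genes at least 2-fold higher and 2.52% lower. Of 15 interferon receptor and JAK-STAT genes 13 were measured, of which 0 were at least 2-fold higher in the HKR3 library and 1 was lower. That gene was SOCS1, a feedback inhibitor of JAK kinases, at 15.9, 4.80 and 12.6 FPKM. PTPN6, a phosphatase of this pathway, was at 9.49, 5.16 and 10.3 FPKM, while JAK1 was at 19.8, 30.9 and 19.0 FPKM and the interferon gamma receptor IFNGR1 at 27.5, 39.7 and 41.3 FPKM. The median of the list was 0.05 in both treated libraries, and became 0.20 in the HKR3 library and 0.09 in the other after scaling to the same sum.

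Of 46 other interferon-stimulated genes, 25 were measured, of which 1 was at least 2-fold higher in the HKR3 library and 1 lower, with a median of 0.04 that became 0.19 after scaling to the same sum. The higher one was CXCL10, a chemokine for T cells, just past the threshold with a difference of 1.001, and its levels were 1.24, 3.49 and 3.06 FPKM. The lower one was UBE2L6, given above. SHFL, an inhibitor of viral translation, was at 64.6, 35.1 and 63.0 FPKM, and TNFSF10, the death ligand TRAIL, at 5.78, 3.002 and 7.51 FPKM. Of 39 other sensing and adaptor genes with a value 29 were measured, of which 1 was at least 2-fold higher in the HKR3 library and 0 lower, with a median of -0.08 that turned to 0.07 after scaling to the same sum. In the library labelled siTERT, 0 of the measured genes of these lists were past 2-fold, beside 0.483% of all genes.

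The sensing gene past 2-fold was POLR3C, a subunit of RNA polymerase III, which can copy foreign DNA into RNA that RIG-I detects. It was at 8.84, 22.4 and 10.3 FPKM. POLR3F, another subunit, was at 8.03, 14.4 and 8.54 FPKM. Both subunits were highest in the HKR3 library, while SAMHD1 and RNASEH2A were lowest in it. SAMHD1, which destroys deoxynucleotides, was at 5.33, 2.67 and 4.94 FPKM, and RNASEH2A, a subunit of ribonuclease H2, was at 72.8, 42.0 and 63.9 FPKM. Of RNASEH2A, 28.6% of sequence units occur in the gene THSD8.

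Antigen presentation genes, another late target of interferon, had 0 of 13 measured members, out of 20, past 2-fold in either treated library. Their median was -0.17 in the HKR3 library, while that of the library labelled siTERT was 0.16. After scaling to the same sum these were -0.02 and 0.20. TAP2, a subunit of the peptide transporter, was at 2.23, 2.54 and 3.83 FPKM, and TAPBP, or tapasin, at 15.4, 9.29 and 16.3 FPKM. PSME1, a subunit of the proteasome activator, was at 135, 91.0 and 126 FPKM. TAP2 shares 31.7% of its sequence units with the annotated gene AL669918.1, so its value is uncertain.

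The list with the highest median was that of NF-kB and AP-1 genes, which sensing can also switch on but which many other stimuli induce. In the HKR3 library 11 of its 16 measured members were at least 2-fold higher and 0 lower, the median being 2.12. The corresponding count in the library labelled siTERT was 2 of 16, beside 0.282% of all genes higher in that library, and the median was 0.59. CXCL8, JUN, ATF3 and CXCL2 had differences of 4.42, 3.95, 3.60 and 3.57 in the HKR3 library, and 1.94, 0.68, 0.67 and 0.70 in the other. This list was known from earlier results to be high in these libraries, so its direction is no independent evidence. Why this list and the interferon-stimulated genes differ was not tested, and HKR3 itself and the plasmid that carried it cannot be told apart in these libraries.

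**Figure D4:**
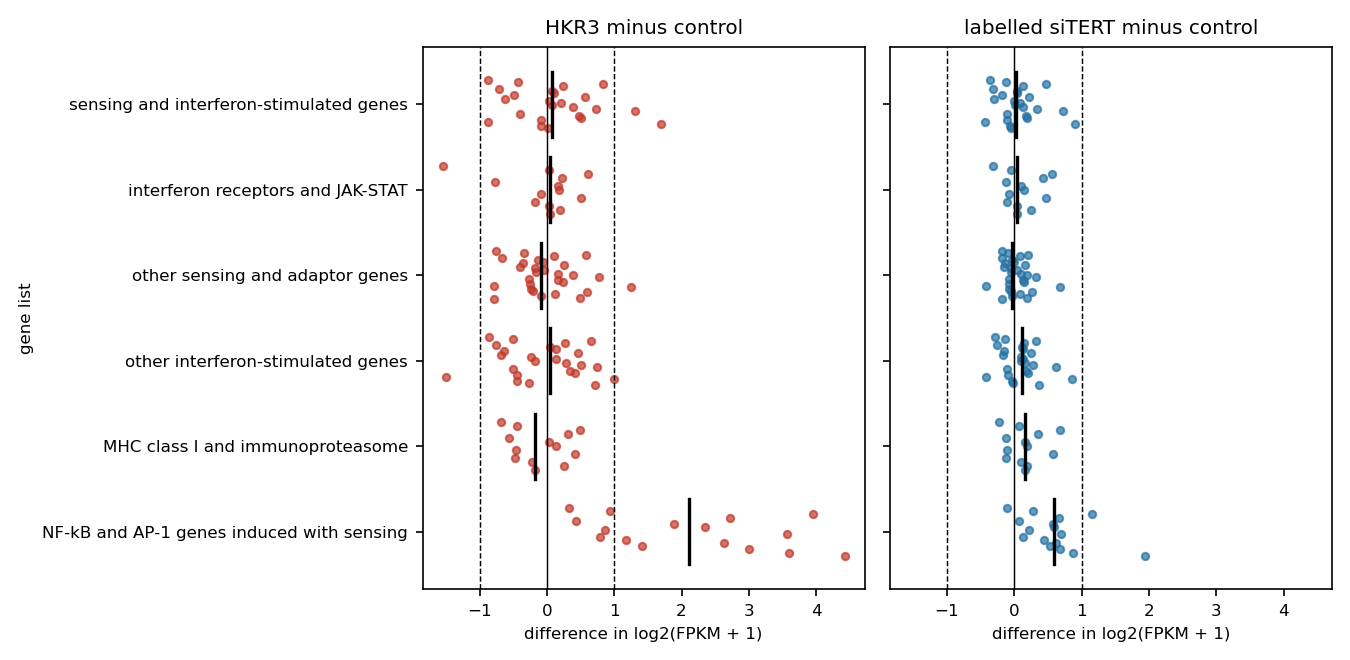
Difference from the control in log2(FPKM + 1) of measured genes by list, for the HKR3 library (left) and the library labelled siTERT (right), with each point a gene, each thick bar a list median and dashed lines at 2-fold. The 5 upper lists have medians between -0.17 and 0.16, while the NF-kB and AP-1 list has 2.12 and 0.59.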

How the data were processed

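The authors deposited 1 table of FPKM values, with a column for each library. The submitters' processing notes name STAR 2.5.0, Cufflinks, Cuffdiff 2.2.1 and the hg19 build. The unit is inferred from these tools, since the header names none. Libraries came from a stranded messenger RNA kit, per the labels' protocols. The settings, the annotation and whether counting used strand are not stated there. Of 19869 entries, 19310 matched a symbol by Ensembl identifier. Entries sharing a symbol were summed and 4 short noncoding RNAs left out. DDX58 was matched through a RefSeq synonym, RIGI.

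Differences were calculated as log2(FPKM + 1) for genes whose mean over the libraries was 1 FPKM or more, with a size rule of 2-fold in place of a test, in Python 3.11.15 with pandas 2.3.3 and scipy 1.17.1. The calculation was checked on simulated data. Fragments per gene were estimated as FPKM times the length of the APPRIS principal transcript in GENCODE v29 times the estimated library size. That size was estimated from genes under 0.12 FPKM with 1 annotated transcript of at least 1000 bases, each taken to hold a single fragment. It is the median of the estimates within 25% of it, from 63 of 155 such genes in the control, 62 of 181 in the HKR3 library and 67 of 190 in the library labelled siTERT, so it is uncertain. If FPKM was scaled further between libraries, it is a scaled size. RefSeq promoters are of GRCh38.p14, and no coordinates were taken from the expression table. Named were all members with a value and, per pathway list, the 4 with the largest difference, with a few others chosen after their values were seen: IFNAR1, IFNAR2 and IFNLR1. Some genes that this rule names are not reported here. The members, lists and rules were chosen with earlier results of these data known.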

Additional observations from a re-analysis of the deposited data

How the results depend on the processing

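With 1 library in each group, no library could be left out, and counting intervals are the only measure of precision. No paired analysis was possible because each group holds 1 library. In the HKR3 library the 2 genes past 2-fold became 4 with a pseudocount of 0.1 FPKM (IRF1 and USP18 added), 3 after scaling to the same sum (IRF1 added), 0 with a pseudocount of 5, 1 at a mean of at least 5 FPKM and 8 at 1.5-fold. The median difference of 0.08 became 0.23 after scaling to the same sum, -0.082 at a mean of at least 5 FPKM and 0 without a filter. In the library labelled siTERT the count of 0 became 1, ISG20, with a pseudocount of 0.1 or after scaling to the same sum, and 2 at 1.5-fold. Between both treated libraries the count of 1 became 2 with a pseudocount of 0.1, after scaling to the same sum or at 1.5-fold, and 0 with a pseudocount of 5 or at a mean of at least 5 FPKM. The median there, -0.05, became 0.058 after scaling to the same sum and 0 without a filter. Setting the median of all genes to 0 changed 0 of these counts.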
